A study of Mus musculus with 35 samples.

Results

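The genes described here mark the contractile and perivascular cells of the kidney. They are Acta2, Tagln, Myh11, Cnn1 and Des of the contractile apparatus and cytoskeleton, the receptors Pdgfrb and Pdgfra, the pericyte surface proteins Mcam and Cspg4, and the mesangial integrin subunit Itga8. The genes are a list of names, and every probe set annotated to 1 of them alone was taken. All 10 genes were on the array, with 19 probe sets, among 18193 genes and 45101 probe sets in all. A gene was read from its probe set with the highest mean, and 9 of the 10 passed the filter on dim genes. Cnn1 fell just below it, with a mean log2 signal of 5.26 against a threshold of 5.273. The results therefore cover 9 tested genes, and Cnn1 is given from a fit without the filter.

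RNA came from whole kidneys of FVB/NJ mice, extracted with TRIzol, labelled with biotin and hybridised to Affymetrix arrays. The diabetic mice belong to the OVE26 line, which carries a calmodulin transgene expressed in the beta cells of the pancreas and becomes diabetic through loss of insulin. The controls are labelled only as control mice of the same strain, and the sex of the animals is not given in the labels. At 2 months of age and again at 8 months, 6 kidneys of diabetic mice were set against 6 of controls, and at 4 months 7 of diabetic mice against 4. The comparisons ask how the kidney's expression differs between diabetic and control mice at each age, and whether that difference changes with age. The labels number the kidneys within a group without saying that each came from another animal, so p-values measure the spread between these arrays.

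Smooth muscle cells surround the renal arteries and arterioles, pericytes lie on the capillaries, and mesangial cells hold the capillary loops of the glomerulus together. All of them contain actin and myosin filaments, and their growth depends on platelet-derived growth factor acting on the receptor encoded by Pdgfrb. In a scarring kidney, pericytes and fibroblasts can turn into myofibroblasts, which gain smooth muscle actin. Many contractile genes are switched on by serum response factor, which binds the CArG box, a short DNA element with a core of A and T letters, together with cofactors of the myocardin family.

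The promoters of 3 of the genes are shown because the genes behaved differently at 8 months: Acta2 was called higher, Cnn1 was too dim to be tested, and Itga8 had a negative difference. Each sequence is the 250 bases before the annotated start, from RefSeq on GRCm38.p6, written 5′ to 3′ on the strand of the gene. Acta2 lies at chr19:34255374-34255623 on the minus strand, Cnn1 at chr9:22099003-22099252 on the plus strand and Itga8 at chr2:12301945-12302194 on the minus strand. Capitals mark the stretches that read as a CArG box when 1 core letter may be other than A or T.
Acta2: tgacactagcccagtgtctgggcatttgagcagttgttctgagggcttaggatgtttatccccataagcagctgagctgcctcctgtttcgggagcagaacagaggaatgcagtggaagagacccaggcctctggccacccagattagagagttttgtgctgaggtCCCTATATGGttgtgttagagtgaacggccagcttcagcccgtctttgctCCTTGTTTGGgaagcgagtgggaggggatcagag
Cnn1: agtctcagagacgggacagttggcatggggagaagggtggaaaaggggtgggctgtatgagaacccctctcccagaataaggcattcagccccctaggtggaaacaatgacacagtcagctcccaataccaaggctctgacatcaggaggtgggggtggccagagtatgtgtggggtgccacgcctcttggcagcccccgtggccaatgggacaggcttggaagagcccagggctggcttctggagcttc
Itga8: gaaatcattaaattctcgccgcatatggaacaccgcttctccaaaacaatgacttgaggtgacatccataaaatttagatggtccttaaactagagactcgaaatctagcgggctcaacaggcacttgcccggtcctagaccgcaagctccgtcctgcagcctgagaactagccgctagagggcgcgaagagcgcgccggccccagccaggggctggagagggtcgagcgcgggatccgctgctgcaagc
Such windows were used for 7 of the 10 genes, all but Tagln, Myh11 and Pdgfrb. For these genes 1 chromosome was left out by rule, but not for the shares over all windows. An exact CArG box was in 0 of the 7, and in 378 of the windows of 27025 genes, or 1.4%. With 1 core letter free, a setting added after seeing the data, Acta2 held 2 matches, CCCTATATGG starting 84 bases and CCTTGTTTGG starting 34 bases before the start. The other 6 windows held none, against 2338 of all windows, or 8.65%. The letters TATAAA, searched on both strands, were in none of the 7 and in 3504 of all windows, or 13%. A match describes letters in this window only.

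The scale of the values sets what can be compared. Signals are on a log2 scale, so a difference of 1 is a doubling, and the mean over an array ran from 6.427 to 6.443 in the youngest mice, from 6.018 to 6.036 at 4 months and stood at 6.537 at 8 months. Ages may thus have been scaled apart, and diabetic arrays are compared with controls of their own age. A gene is called where its p in a limma fit over all 35 arrays, adjusted by Benjamini and Hochberg over 13004 genes, is under 0.05. By this rule the 2-month comparison called 2.54% of genes, the 4-month comparison 0.969% and the 8-month comparison 16.8%. Some arrays stood apart. Diabetic array 3 at 8 months lay at 39 on the first principal component, where the other diabetic arrays reached 17 at most. Arrays 5 and 6 of both groups at 2 months lay between -36.6 and -9.32, against 7.18 to 14.1 for the rest. Control arrays 3 and 4 at 4 months had Arntl, a clock gene with a daily rhythm, at 7.84 and 8.17, where the other arrays of that age reached 6.21 at most. At 8 months Dbp, another clock gene, read 8.25, 8.14 and 7.32 on diabetic arrays 1, 2 and 5 and at least 9.48 on the others.

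At 8 months, 5 of the 9 tested genes were called higher in diabetic kidneys and 0 lower, where 9.87% of all genes tested were called higher and 6.95% lower. Those were Acta2, Tagln, Pdgfrb, Mcam and Cspg4. The list was not drawn up independently of these data, so the shares are set side by side as a description. The median difference of the 9 genes was 0.24, against 0.00 over all genes tested, and 8 of the 9 differences were positive. Myh11, Pdgfra, Itga8 and Des were not called. In RNA from a whole organ, more cells of a type and more RNA per cell cannot be told apart. How far the call of 3 of the 5 rests on diabetic array 3 is given with each gene.

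**Figure D1:**
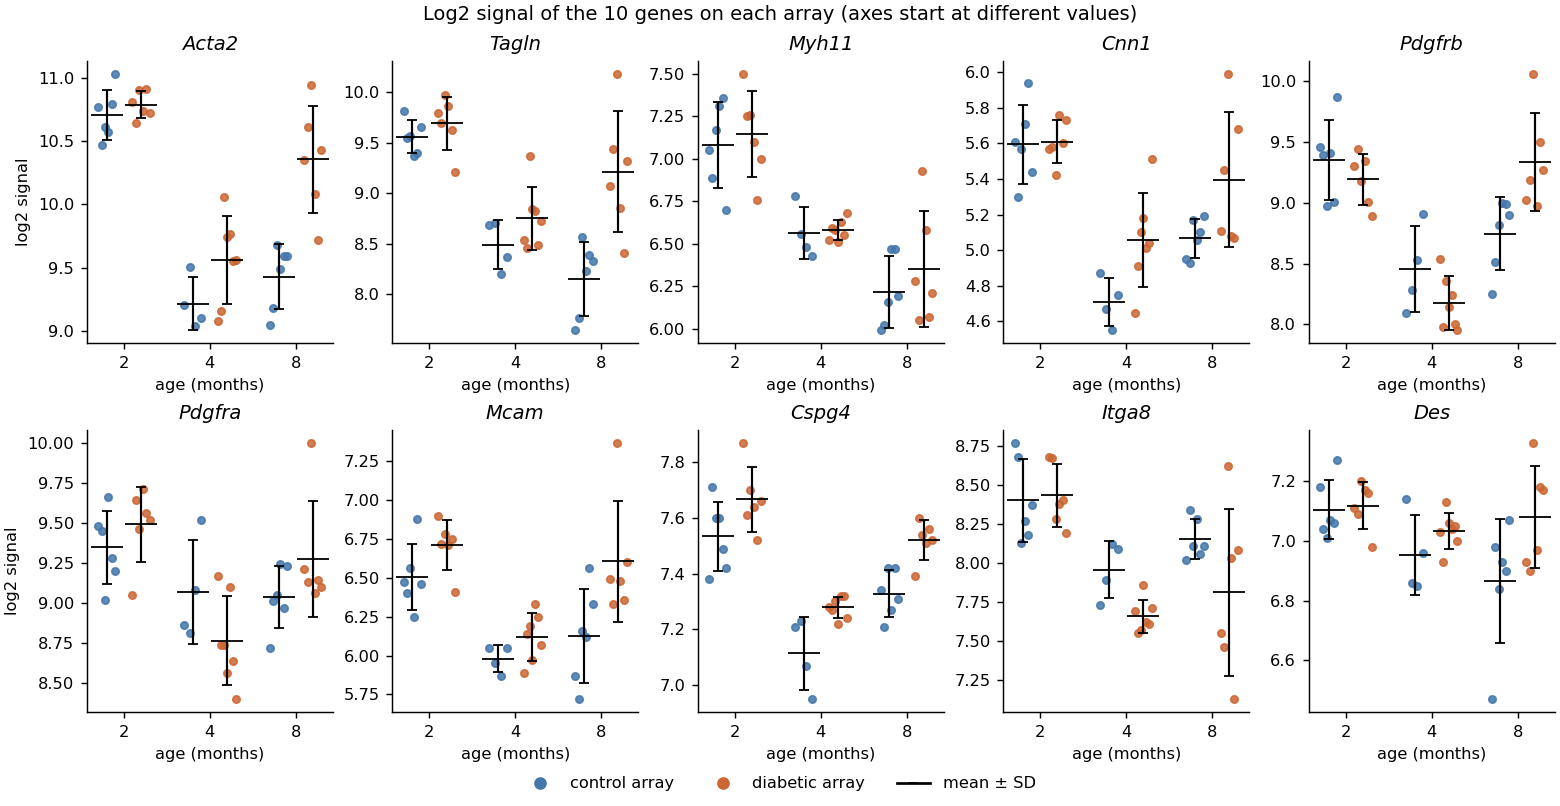
Log2 signal of each of the 10 genes on each of the 35 arrays, by age in months and group, with the group mean and SD. At 8 months the diabetic arrays of Acta2 sit between 9.72 and 10.94, all above the controls, while those of Itga8 spread from 7.13 to 8.62.

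Acta2, which encodes smooth muscle alpha-actin, read 10.35, 10.61, 10.94, 10.08, 9.72 and 10.43 on the 6 diabetic arrays at 8 months. The controls read 9.05, 9.18, 9.68, 9.49, 9.59 and 9.59. All diabetic arrays were above all controls, as was true of 5.41% of the genes tested. The group means were 10.35 ± 0.42 (SD, n = 6) and 9.43 ± 0.25 (SD, n = 6). Acta2 rose by 0.92 ± 0.15 (SE), a 1.9-fold change, with an adjusted p of 4.84e-05 and a 95% interval of 0.61 to 1.24. It was the only one of the 9 without overlap. The probe set carries a suffix (_s_at) for probes that may match more than 1 transcript. The other 2 probe sets of Acta2 were dim, with means of 3.97 and 3.66, and differed by -0.03 and 0.05.

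Tagln encodes transgelin, an actin-binding protein of smooth muscle, and had the largest difference of the 9 genes. The diabetic arrays at 8 months read 9.07, 9.44, 10.18, 8.85, 8.41 and 9.32, and the controls 7.64, 7.76, 8.56, 8.23, 8.39 and 8.33. Only the highest control, at 8.56, reached into the range of the diabetic arrays, above the lowest of them. Tagln rose by 1.06 ± 0.19 (SE), a 2.09-fold change, with an adjusted p of 0.000162 and a 95% interval of 0.67 to 1.46. Acta2 and Tagln stayed called when any single 8-month array was left out, with differences of 0.81 to 1.05 and 0.87 to 1.22.

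Myh11, the smooth muscle myosin heavy chain, did not pass the test. The diabetic arrays at 8 months lay between 6.05 and 6.93 with a median of 6.24, and the controls between 5.99 and 6.47 with a median of 6.17. The groups overlapped over most of the control range. The difference was 0.14 ± 0.13 (SE), adjusted p 0.526, and its 95% interval, -0.12 to 0.40, ends below the intervals of Acta2 and Tagln. A second, dim probe set of Myh11, with a mean of 4.64, differed by -0.01. Within each array, Acta2 minus Myh11 was higher in diabetic kidneys by 0.79, with an exact permutation p of 0.00433 (two-sided, 6 against 6 arrays). Tagln minus Myh11 was higher by 0.92. These are among 36 pairs of genes compared after seeing the data, and both had a p of 0.0275 adjusted over the 36. Without diabetic array 3 the values were 0.79 and 0.84, both with an adjusted permutation p of 0.0425.

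Cnn1 encodes calponin, which regulates the binding of myosin to actin. In the fit without the filter its difference at 8 months was 0.33 ± 0.13 (SE), adjusted p 0.0863 over 18193 genes, of which 13.1% were called. Diabetic arrays ranged from 5.07 to 5.99 with a median of 5.28, and controls from 4.93 to 5.19 with a median of 5.08. Des encodes desmin, the intermediate filament of muscle, which mesangial cells also contain and which injured podocytes gain. It lay at 7.08 ± 0.17 (SD, n = 6) in diabetic and 6.86 ± 0.21 (SD, n = 6) in control kidneys. Its difference of 0.22 ± 0.08 (SE) had an adjusted p of 0.0559, and its 95% interval ran from 0.06 to 0.38. Without diabetic array 1, 2 or 4 or control array 6 Des was called, with adjusted p of 0.0258 to 0.0418. A second probe set of Des, close above the threshold with a mean of 5.32, differed by -0.08 ± 0.15 (SE).

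Other genes of the contractile apparatus were followed as a list, of which 10 of 14 were tested. At 8 months 4 were called higher and 1 lower, with a median difference of 0.32. Over all genes tested 9.87% were called higher and 6.95% lower at that age, which holds for the lists that follow too. Tpm1, a tropomyosin that lines the actin filament, rose by 0.71 ± 0.09 (SE), adjusted p 6.83e-07. Flna, a filamin that crosslinks actin, rose by 0.76 ± 0.14 (SE), adjusted p 0.000117, and Tpm2 by 0.62 ± 0.13 (SE). Tropomyosins and filamin are also found in cells other than muscle. Pln, which restrains the calcium pump of the sarcoplasmic reticulum, fell by 0.41 ± 0.09 (SE), adjusted p 0.00161. Caldesmon (Cald1), the remaining called gene, was named after its values were seen: it rose by 0.42 ± 0.12 (SE), and without diabetic array 3 the difference was 0.31 with an adjusted p of 0.0655. Myl9, Mylk, Lmod1 and Smtn, also named after their values were seen, had differences of 0.24, 0.06, 0.06 and -0.06 and were not called. Synpo2, an actin-binding protein of muscle, was the last of the 10 and likewise not called, at 0.39 ± 0.14 (SE), adjusted p 0.0548. It was called under 5 of 8 other settings, and its difference without diabetic array 3 was 0.31, adjusted p 0.179. At 2 and at 4 months none of the 10 was called.

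**Figure D2:**
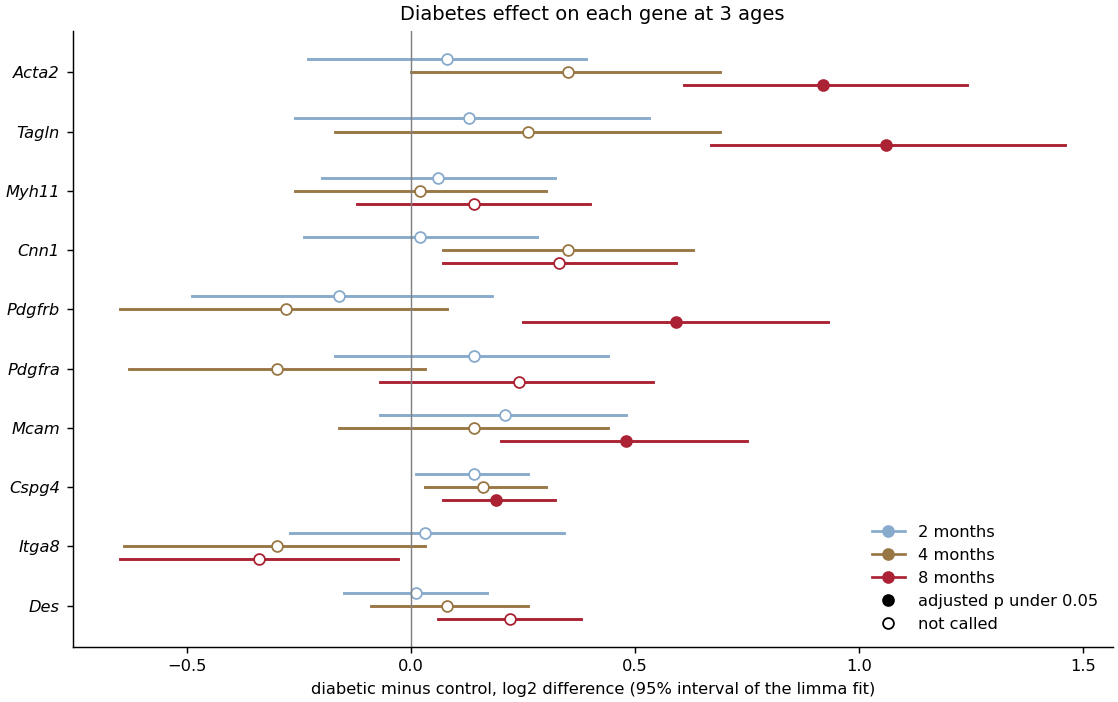
Diabetic minus control difference in log2 signal for each of the 10 genes at 2, 4 and 8 months, with 95% intervals of the limma fit. The intervals of Acta2 and Tagln at 8 months lie above those of Myh11, and the difference of Itga8 at 8 months is below 0.

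Pdgfrb encodes the receptor for platelet-derived growth factor on pericytes and mesangial cells. The diabetic arrays at 8 months read 9.02, 9.19, 10.06, 8.97, 9.50 and 9.27, and the controls 8.25, 8.51, 8.82, 9.0, 8.99 and 8.90. The groups met at their edges, with the highest controls just above the lowest diabetic array. Pdgfrb rose by 0.59 ± 0.17 (SE), a 1.5-fold change, adjusted p 0.0117. Without diabetic array 3, the highest, the difference was 0.45 with an adjusted p of 0.0563. Its second probe set, tested over 34945 probe sets of which 9.69% were called, rose by 0.42 ± 0.12 (SE), adjusted p 0.0185. Diabetic array 3 was the highest there too, at 8.53 with the next at 7.91, and this probe set was not fitted without that array.

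Pdgfra encodes the second receptor of the family, a marker of interstitial fibroblasts. It was not called at 8 months, with a difference of 0.24 ± 0.15 (SE), adjusted p 0.316, and a 95% interval of -0.07 to 0.54. The diabetic arrays had a lowest value of 9.06, a median of 9.13 and a highest value of 10, and the controls 8.72, 9.03 and 9.24. Among the diabetic arrays only array 3 stood above 9.21. Within arrays, Pdgfrb minus Pdgfra was higher in diabetic kidneys by 0.35, with a permutation p of 0.0275 adjusted over the 36 pairs and 0.0458 without diabetic array 3.

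All 4 genes of the ligands were tested, and at 8 months 2 were called higher, with a median of 0.29. Pdgfb, the ligand that endothelial cells use to hold pericytes, rose from 7.93 ± 0.21 (SD, n = 6) to 8.52 ± 0.43 (SD, n = 6), a difference of 0.59 ± 0.14 (SE), adjusted p 0.00221. Its call held without any single 8-month array. Pdgfa rose by 0.35 ± 0.12 (SE), adjusted p 0.0443, and lost its call without any of 9 of the 12 arrays (0.29, adjusted p 0.132, without diabetic array 3), all but diabetic arrays 1 and 6 and control array 5. It also lost the call with arrays centred on their medians and without the dim filter. Pdgfc and Pdgfd, outside the naming rule and named after their values were seen, had differences of -0.27 and 0.23 and were not called. No ligand was called at 2 or 4 months.

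Mcam encodes an adhesion molecule (CD146) of pericytes, smooth muscle and endothelium. The diabetic arrays at 8 months had a lowest value of 6.33, a median of 6.48 and a highest of 7.37, and the controls 5.72, 6.14 and 6.56. The groups overlapped, and diabetic array 3 was well above the next diabetic array, at 6.60. Mcam rose by 0.48 ± 0.13 (SE), adjusted p 0.0119, and without diabetic array 3 the difference was 0.32, adjusted p 0.0548. In a fit on the 8-month arrays alone it was 0.48 with an adjusted p of 0.0777.

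Cspg4 encodes the proteoglycan NG2 of pericytes, and had the narrowest spread. It lay at 7.52 ± 0.07 (SD, n = 6) in diabetic and 7.33 ± 0.08 (SD, n = 6) in control kidneys at 8 months. The lowest diabetic array, at 7.39, was below the highest control, at 7.42. Cspg4 rose by 0.19 ± 0.06 (SE), a 1.14-fold change, adjusted p 0.0268. Its second probe set differed by 0.29 ± 0.10 (SE) and was not called over the 34945 probe sets, adjusted p 0.061. The call was lost without diabetic array 2, 3 or 5 or control array 2 or 4, with differences of 0.17 to 0.19 and adjusted p of 0.0528 to 0.0786, and under 3 other settings. These were quantile normalization of all arrays (0.15, adjusted p 0.0871) or within each age (0.15, adjusted p 0.0836), and a replicate block, a term for each replicate number within an age (0.19, adjusted p 0.0551). Diabetic array 3 was not the highest array of this gene, in contrast to the other 9.

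Of a list of 13 other mural cell genes 12 were tested, with 2 called higher, 2 lower and a median of 0.19 at 8 months. The shares over all genes tested were 9.87% higher and 6.95% lower. Abcc9 and Kcnj8 encode the sulfonylurea receptor SUR2 and the pore of the potassium channel that it forms in mural cells. Abcc9 fell from 8.87 ± 0.04 (SD, n = 6) to 8.17 ± 0.23 (SD, n = 6), with controls from 8.81 to 8.93 and diabetic arrays from 7.88 to 8.55. The groups did not overlap, as for 4.28% of the genes tested that were lower without overlap, and the difference was -0.70 ± 0.09 (SE), adjusted p 8.48e-07. Kcnj8 fell from 6.65 ± 0.15 (SD, n = 6) to 6.13 ± 0.23 (SD, n = 6), also without overlap, by 0.52 ± 0.12 (SE), adjusted p 0.00238. Both were called without any single 8-month array. Gucy1a1, a subunit of the nitric oxide receptor, rose by 0.53 ± 0.15 (SE), adjusted p 0.0118, and lost its call without diabetic array 3 (0.42, adjusted p 0.0534) or control array 1, and when its probe sets were averaged. Cd248, the endosialin of activated pericytes and fibroblasts, rose by 0.45 ± 0.14 (SE), adjusted p 0.0198, and lost it without diabetic array 3 (0.40, adjusted p 0.0625) or 5 or control array 1 or 2, in the fit on the 8-month arrays alone and with the clock genes (Arntl minus Dbp) as a covariate.

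Itga8 encodes the alpha-8 integrin subunit of mesangial cells, which binds matrix together with beta-1 integrin. At 8 months the diabetic arrays read 7.55, 7.46, 8.62, 8.03, 7.13 and 8.08, and the controls lay between 8.02 and 8.34. Diabetic arrays lay on both sides of the controls, with array 3 above them all. Arrays 1, 2 and 5, the lowest, had the clock gene Dbp at 8.25, 8.14 and 7.32. The other 8-month arrays had it at 9.48 or more, and a link with Itga8 was not tested. The difference of Itga8 was -0.34 ± 0.15 (SE), a 1.27-fold lower signal, adjusted p 0.128. Over the settings other than left-out arrays, among them a clock covariate, it lay between -0.38 and -0.25. Without diabetic array 3 it was -0.50 with an adjusted p of 0.00896, and Itga8 was then called lower. Array weights, which give less weight to variable arrays, also called it lower. The second probe set of Itga8 differed by -0.34 ± 0.23 (SE), adjusted p 0.458.

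Relative to Itga8 on the same array, 7 of the other 8 tested genes were higher in diabetic kidneys, all but Cspg4 (0.53, adjusted permutation p 0.0744). Without diabetic array 3 Cspg4 minus Itga8 was 0.69 and passed too, with an adjusted permutation p of 0.039. All 8 comparisons share the values of Itga8. Acta2 minus Itga8 was higher by 1.27, Tagln minus Itga8 by 1.40 and Pdgfrb minus Itga8 by 0.93. In none of these did the diabetic and control arrays overlap, and the exact two-sided permutation p of Pdgfrb minus Itga8 was 0.00216, the smallest that 6 against 6 arrays allow. Adjusted over the 36 pairs all 3 had a permutation p of 0.026, and Pdgfrb minus Itga8 was 0.95 with 0.039 without diabetic array 3. Of the 36 pairs 21 had an adjusted permutation p under 0.05, and 19 of them also did without that array. The share of pairs of other genes that would pass is not given here. Neither this count nor the count against Itga8 can therefore show a trait particular to these genes. Acta2 minus Tagln (-0.13) and Acta2 minus Pdgfrb (0.33) did not pass, with adjusted permutation p of 0.236 and 0.141. Such values show unequal change of 2 genes, not which of them moved.

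Of the partners of the integrin, 4 of 6 genes were tested and 1 was called higher at 8 months, with a median of 0.34. Tnc, the matrix protein tenascin C that the integrin binds, rose from 5.67 ± 0.14 (SD, n = 6) to 6.57 ± 0.72 (SD, n = 6), by 0.90 ± 0.21 (SE), adjusted p 0.00187. Of the list of mesangial and renin cell genes, 6 of 9 were tested, with 1 called higher, 2 lower and a median of -0.02. Sfrp2, a secreted Wnt modulator, fell by 0.55 ± 0.14 (SE), adjusted p 0.00446, and lost its call in the fit on the 8-month arrays alone. Thy1, a surface protein of mesangial cells in the rat and of fibroblasts and T cells, rose by 0.46 ± 0.16 (SE), adjusted p 0.035. Art3 fell by 0.24 ± 0.08 (SE), adjusted p 0.044. The call of Thy1 was lost without any of 7 arrays (diabetic 3, 4 and 6 and controls 1, 2, 3 and 5), with 0.30 and an adjusted p of 0.156 without diabetic array 3. That of Art3 was lost without any of 9, all but diabetic array 4 and controls 1 and 3, and with the replicate block (adjusted p 0.0503), without the dim filter and in the fit on the 8-month arrays alone. That fit also ended the call of Thy1. Over all genes tested 9.87% were called higher and 6.95% lower at 8 months. The counts of so short a list therefore say little about the direction of mesangial genes.

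Among 8 transcription factors and cofactors of these cells, 5 were tested, and 2 were called higher and 1 lower at 8 months, with a median of 0.20. Mrtfa, a cofactor of serum response factor that senses actin, rose by 0.37 ± 0.09 (SE), adjusted p 0.00356. Gata6, a factor of smooth muscle, rose by 0.49 ± 0.13 (SE), adjusted p 0.00644. Both calls held without any single 8-month array. Tcf21, a factor of the stroma and podocytes, fell by 0.45 ± 0.14 (SE), adjusted p 0.0282, and lost its call without diabetic array 2 or 5 or control array 2, 4, 5 or 6. It also lost it with the replicate block (adjusted p 0.077), in the fit on the 8-month arrays alone and when its probe sets were averaged. Srf itself, named after its value was seen, differed by 0.07 and was not called, and Myocd, Tbx18 and Foxd1 were too dim to be tested.

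**Figure D3:**
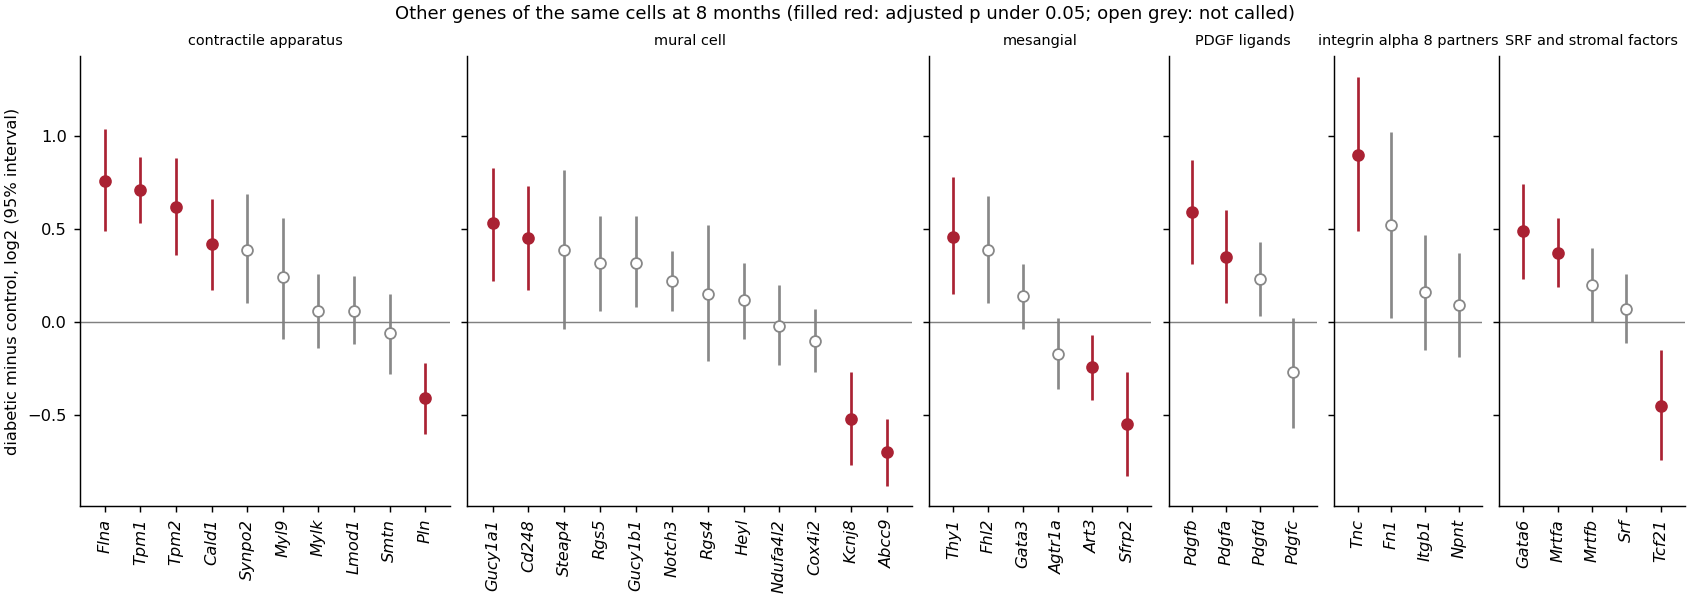
Diabetic minus control difference in log2 signal at 8 months for the genes of the companion lists, with the called genes marked. Abcc9 at -0.70 and Kcnj8 at -0.52 lie at the low end of the mural list, and Tpm1 and Flna at 0.71 and 0.76 at the high end of the contractile list.

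Markers of other cells also differed at 8 months, with some lists higher, some lower and some hardly changed. Of all genes tested 9.87% were called higher at that age and 6.95% lower. Matrix and fibroblast genes were called higher for 8 of 11 tested, and their mean level lay between 7.37 and 9.56 in diabetic and between 6.89 and 7.74 in control kidneys. Macrophage genes were higher for 7 of 8, at 8.89 to 10.49 against 7.70 to 8.23, and genes of tubular injury for 6 of 6, at 8.03 to 9.93 against 6.64 to 7.05. Endothelial genes were called for 1 of 12, Cldn5, a junction protein that fell by 0.33 ± 0.10 (SE). Podocyte genes were lower for 2 of 6, at 7.44 to 7.79 against 7.77 to 8.10. The mean level of the 10 genes described here was 7.61 to 8.49 in diabetic and 7.23 to 7.64 in control kidneys. Of 7 striated muscle genes 5 were too dim to be tested, and the list lay at 4.82 to 5.17 in diabetic and 4.99 to 5.24 in control kidneys. Genes that define tubule segments were called lower for 6 of 7, all 6 without overlap, and higher for 1, the water channel Aqp2, named after its value was seen. Their mean level lay at 12.27 to 12.61 in diabetic and 12.66 to 12.79 in control kidneys. Of the urothelial list 2 of 5 were higher, and of the fat list 2 of 5 lower. The part of these cells in the differences of the contractile and perivascular genes was not tested.

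Diabetic array 3 was the highest diabetic array at 8 months for 9 of the 10 genes, and the lowest control was array 1 for 7 and array 2 for 3. Array 3 also had the highest signal of the collagen gene Col1a1, at 10.28, where the other diabetic arrays reached 8.30 at most. Without it Acta2 and Tagln were called higher and Itga8 lower, and the rest of the 9 genes were not called. The 3' to 5' ratio of the actin control probe sets lay between 0.78 and 1.05 on the log2 scale over the 8-month arrays. At 2 months it stood at 2.56 on control array 6 and between 0.81 and 1.35 on the others, and the Gapdh ratio at 0.99 on that array and at most 0.15 on the others.

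**Figure D4:**
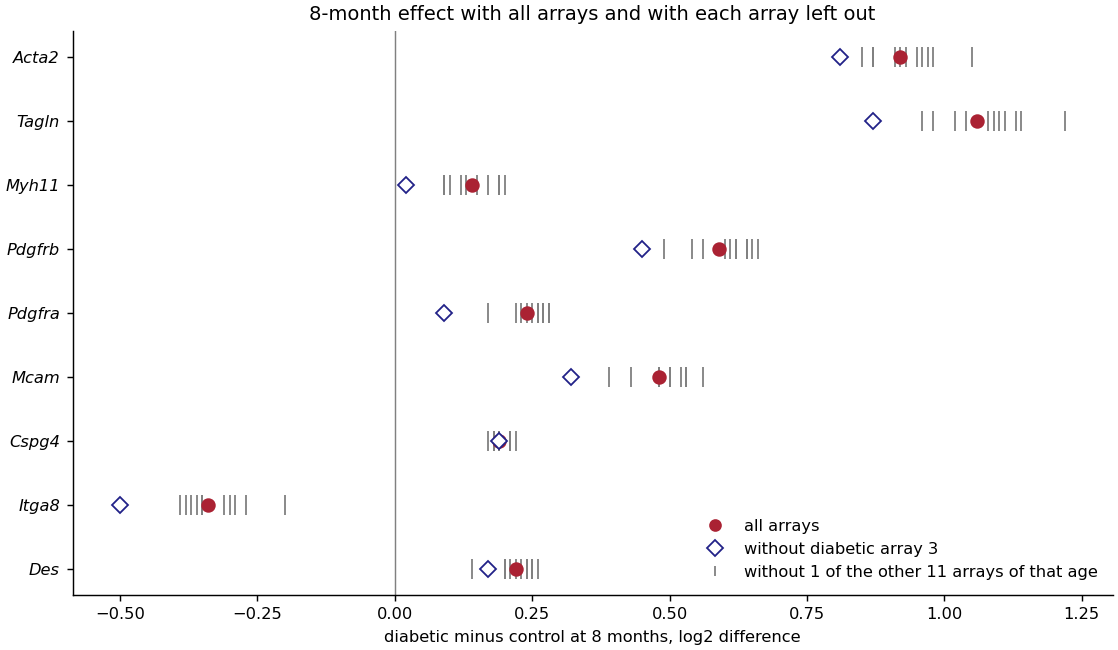
Diabetic minus control difference in log2 signal at 8 months for the 9 tested genes, with all arrays and with each 8-month array left out. The fit without diabetic array 3 has its own mark. Acta2 and Tagln stay at 0.81 to 1.05 and 0.87 to 1.22, while Pdgfrb and Mcam drop to 0.45 and 0.32 without diabetic array 3.

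At 2 months none of the 9 genes was called, where 2.54% of the genes tested were called. By the unadjusted p of limma 1 of the 9 was under 0.05. The share of all genes under that looser threshold is not given here. Acta2 lay at 10.79 ± 0.10 (SD, n = 6) in diabetic and 10.71 ± 0.20 (SD, n = 6) in control kidneys, and Tagln at 9.69 ± 0.27 (SD, n = 6) and 9.56 ± 0.16 (SD, n = 6). The differences of 0.08 ± 0.15 (SE) and 0.13 ± 0.19 (SE) were no larger than the spread between arrays. Pdgfrb differed by -0.16 ± 0.17 (SE), Pdgfra by 0.14 ± 0.15 (SE) and Mcam by 0.21 ± 0.13 (SE). Cspg4 had the smallest adjusted p of that age, 0.274, with a difference of 0.14 ± 0.06 (SE). Myh11, Itga8 and Des differed by 0.06, 0.03 and 0.01, and Cnn1 by 0.02. Second probe sets of Itga8 and Pdgfra, both above the threshold on dim genes, differed by 0.46 ± 0.23 (SE) and 0.4 ± 0.22 (SE). Neither was called by limma over the probe sets, with adjusted p of 0.464 and 0.52. That of Itga8 read 6.52 and 6.24 on diabetic arrays 5 and 6, and 6 and 4.27 on controls 5 and 6. Arrays 1 to 4 of both groups lay between 5.06 and 5.37. That of Pdgfra read 7.55 and 7.53, and 7.17 and 5.99, on the same arrays, against 5.94 to 6.34 on arrays 1 to 4. All groups overlapped, where 1.5% of the genes tested did not, and the median of the 9 was 0.08, against -0.01 over all genes tested.

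At 4 months again none was called by limma, where 0.969% of the genes tested were called. An unadjusted p under 0.05 was found for 2, again without a share of all genes to set beside it. Acta2 lay at 9.56 ± 0.34 (SD, n = 7) in diabetic kidneys, from 9.08 to 10.06, and the controls read 9.21, 9.51, 9.04 and 9.10. The diabetic arrays covered almost the whole range of the controls, and the difference was 0.35 ± 0.17 (SE), adjusted p 0.429. Tagln differed by 0.26 ± 0.21 (SE), with diabetic arrays from 8.46 to 9.37 and controls at 8.68, 8.70, 8.20 and 8.37. Pdgfrb, Pdgfra and Itga8 had negative differences of similar size, -0.28 ± 0.18 (SE), -0.30 ± 0.16 (SE) and -0.30 ± 0.16 (SE). Without control arrays 3 and 4, which stood apart, these were -0.02, -0.07 and -0.15, and the differences of Acta2 and Tagln were 0.20 and 0.06. Leaving out 1 array at a time moved Pdgfrb between -0.40 and -0.13 and Pdgfra between -0.39 and -0.15. For Itga8 the diabetic arrays ranged from 7.55 to 7.86 and the controls read 7.73, 7.89, 8.12 and 8.09, so that 1 control lay within the diabetic range. Cspg4 had the smallest adjusted p of the 9 at that age, 0.326, with a difference of 0.16 ± 0.07 (SE). Cnn1 differed by 0.35 ± 0.14 (SE) in the fit without the filter, adjusted p 0.364. Mcam differed by 0.14, Des by 0.08 and Myh11 by 0.02. With 4 controls this age had the fewest arrays.

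Abcc9 was the one gene of the contractile, mural, mesangial, ligand, integrin and factor lists that was called at 4 months. It lay at 7.62 ± 0.14 (SD, n = 7) in diabetic and 8.13 ± 0.15 (SD, n = 4) in control kidneys, without overlap, as were 2.44% of the genes tested in that direction. It fell by 0.52 ± 0.10 (SE), adjusted p 0.00436. The call held without any single 4-month array. Without control arrays 3 and 4 together, which stood apart in the clock genes, the difference was -0.58 with an adjusted p of 0.0987. These fits of Abcc9 were added after seeing the data.

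The change of the diabetes effect with age was tested as a difference of differences. Between 8 and 2 months 2 of the 9 genes passed, both with a positive difference, where 3.89% of the genes tested passed and 3.01% were positive. The effect on Acta2 was larger at 8 months by 0.84 ± 0.22 (SE), adjusted p 0.0224, and that on Tagln by 0.93 ± 0.28 (SE), adjusted p 0.0486. Of 24 arrays left out in turn, the call of Acta2 held in 22 and was lost without diabetic array 3 (0.73, adjusted p 0.0513) or control array 1 (0.77, adjusted p 0.0511) of 8 months. The call of Tagln held in 6 of the 24, with differences between 0.74 and 1.09. Without control array 6 of 2 months, whose actin ratio stood apart, Acta2 had 0.78 (adjusted p 0.0353) and Tagln 0.91 (adjusted p 0.0608). With the replicate block, which pairs the same-numbered arrays, Acta2 stood at 0.84 (adjusted p 0.0439) and Tagln at 0.93 without a call (adjusted p 0.0603). The counts of left-out arrays and the blocked values of these genes were added after seeing the data. Cspg4 and Mcam, both called at 8 months, had differences of effects of 0.06 ± 0.09 (SE), adjusted p 0.796, and 0.27 ± 0.19 (SE), adjusted p 0.514. Pdgfrb had a difference of effects of 0.74 ± 0.24 (SE), adjusted p 0.0678, and Itga8 one of -0.37 ± 0.21 (SE), adjusted p 0.381. The second probe set of Itga8 had one of -0.8 ± 0.33 (SE), adjusted p 0.269 over the probe sets. Between 8 and 4 months none of the 9 was called by limma, where 0.877% of genes were called. An unadjusted p under 0.05 was found for 4, and the share of all genes under that threshold is not given here. Pdgfrb came closest, at 0.87 ± 0.25 (SE), adjusted p 0.0817, followed by Tagln at 0.80 ± 0.29 (SE), Acta2 at 0.58 ± 0.23 (SE) and Pdgfra at 0.54 ± 0.22 (SE). Between 4 and 2 months none passed by limma, where 0% of all genes were called, and 0 of the 9 had an unadjusted p under 0.05. The 3 comparisons share arrays.

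The genes whose signal followed each of the 9 most closely were taken from the deviations of the 35 arrays from their group means, as a description. Acta2 and Tagln were each other's nearest genes, with a Pearson r of 0.85 and a Spearman rho of 0.8, and r was 0.773 without the 2 farthest arrays. Next to Acta2 came Cnn2, a calponin found outside muscle, at 0.781 and Flna at 0.761, and next to Tagln Kcnk6 at 0.816 and Tubb6 at 0.815. Pdgfrb was followed by Prss23 at 0.8 and by Hexa and Icam1, both at 0.797. Itga8 was followed by Cd3d, a T cell receptor chain, at 0.777, but r was 0.523 without the 2 farthest arrays. Des was followed by Fblim1, a partner of filamin, at 0.778. Pdgfra was followed by the macrophage gene Lyz2 at 0.754, Myh11 by Lrch3 at 0.751, Mcam by Ap1s2 at 0.828 and Cspg4 by Fbp2 at 0.615. Further neighbours of Itga8, Des, Pdgfra, Myh11, Mcam and Cspg4 are not named. Without the 2 farthest arrays r was lower for every neighbour named here, such as 0.675 for Kcnk6, 0.688 for Tubb6 and 0.633 for Fblim1. Among the 9 genes themselves Pdgfrb and Pdgfra had an r of 0.659 and Myh11 and Mcam one of 0.643, while Cspg4 and Itga8 stood at -0.137. All such values share the arrays' overall quality and makeup, and arrays 5 and 6 at 2 months take part in them.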

How the data were processed

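The authors deposited a log2 signal per probe set and array, as the range of the values shows; how they were corrected for background, summarised and normalised is not given in the sources used here. Per the labels' protocols, biotinylated cRNA was made from total RNA. Of 45101 probe sets 34945 name 1 gene, 932 several, 9160 none, and 64 are controls; by gene identifier 34741 were found in the reference table, with 0 changes of symbol. The probe set with the highest mean stood for each of 18193 genes, and 13004 genes with a mean of at least 5.273, which is percentile 40 over the probe sets, were tested.

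Group means were fitted over all 35 arrays with limma 3.58.1 (R 4.3.3), with 29 residual degrees of freedom and 33.7 after moderation, and Benjamini-Hochberg adjustment over the genes tested. The script was tested on simulated data. Pairs of genes were compared by exact permutation with SciPy 1.17.1. No read depth exists for arrays, and their number limits precision: over genes, the SD within groups had a median of 0.191, 0.12 and 0.141 at the 3 ages in order. No 2 arrays were identical.

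The 10 genes and the lists were chosen with earlier results of these data known. All 10 genes were to be named, with at most 4 called genes of the smallest p from each list and the 3 genes nearest to each. Same-numbered arrays deviated together at 2 months (r 0.246 to 0.444 in 6 of 6 pairs). Arrays of different numbers were not compared, and arrays 5 and 6 of both groups stood apart at that age. These values therefore cannot show whether same-numbered arrays belong together. At 4 months 1 of 4 and at 8 months 2 of 6 pairs had an r over 0.1. Alternatives were 3 other scalings, the mean of all probe sets, no or a stricter dim filter, the arrays of an age alone, a replicate block, terms or subsets for the arrays that stood apart, a clock covariate, array weights and each array left out.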

Additional observations from a re-analysis of the deposited data

Results flagged for a closer look

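Of 60 groups of arrays examined, 6 for each of the 10 genes, 3 held an array far from the others, where chance alone gives about 1 in 20. Tagln on diabetic array 3 at 4 months stood at 9.37, with the next array at 8.84. On diabetic array 3 at 8 months Pdgfra stood at 10, with the next at 9.21, and Mcam at 7.37, with the next at 6.60. The difference between the diabetes effects at 8 and at 2 months, tested in limma as an interaction, was 0.84 for Acta2 (adjusted p 0.0224) and 0.93 for Tagln (adjusted p 0.0486). With 1 of 24 arrays left out at a time, Acta2 was called in 22 fits and Tagln in 6.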

How the results depend on the processing

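Over the alternatives other than left-out arrays, 4 to 6 of the 9 genes were called at 8 months, and over left-out arrays 3 to 6, with 3 without diabetic array 3. The share of all genes called in each of these fits is not given here. These counts, and those between ages below, only describe how the calls varied. Acta2 was called at 8 months under each alternative, at 0.32 with the mean of all probe sets, which includes the dim ones. It stood at up to 0.94 under the other settings and at 0.81 to 1.05 over left-out arrays. No gene was called at 2 or 4 months under any alternative. The count of genes with a larger effect at 8 than at 2 months, 2 as reported, was 1, Acta2, with quantile normalization within age, arrays centred on the median, no filter, the 60th percentile, the replicate block and array weights. It was 0 with the mean of all probe sets and with only arrays 1 to 4 or only arrays 5 and 6 at 2 months, and 0 to 3 over left-out arrays. Between 8 and 4 months it was 1, Pdgfrb, with array weights, and 0 to 1 over left-out arrays. With the replicate block, which pairs same-numbered arrays, 4 genes were called at 8 months, and Cspg4 lost its call (adjusted p 0.0551).

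Values that changed sign were small and not called. At 4 months Myh11 stood at -0.01 with the replicate block, -0.12 with Arntl minus Dbp as covariate and -0.09 without controls 3 and 4. At 2 months Pdgfrb stood at 0.01 with only arrays 1 to 4 and Itga8 at -0.02 with array weights. With only arrays 5 and 6, Acta2 stood at -0.10, Tagln at -0.11, Myh11 at -0.15, Mcam at -0.09 and Des at -0.10. Over left-out arrays at 2 months Myh11 ranged from -0.01 to 0.14, Itga8 from -0.02 to 0.11 and Des from -0.01 to 0.05, and Myh11 at 4 months from -0.02 to 0.09. The cause of these changes was not tested.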
